A study of Danio rerio with 5 samples.

Results

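The collagen and laminin genes were taken by gene symbol, as every collagen chain, laminin chain and nidogen gene, *hspg2* and *sparc*. The rule matched 74 of the 30647 genes listed, of which 72 encode matrix proteins: 53 collagen chains, 13 laminin chains, 4 nidogens, perlecan (*hspg2*) and *sparc*. The other 2, *col4a3bpa* and *col4a3bpb*, carry a collagen name because their product binds collagen IV, but encode ceramide transfer proteins of the cytosol, and are described apart from the 72. RNA-Seq libraries came from sorted EGFP+ cells of *MYCN*-driven neuroblastomas of juvenile zebrafish of the AB strain, 3 of the genotype dβh:EGFP;MYCN;lmo1-/- and 2 of the genotype dβh:EGFP;MYCN;TATA/TATA. All 5 carry *MYCN* and *EGFP* under the dopamine β-hydroxylase promoter, which is active in the sympathetic nervous system, so that the sort keeps cells in which this promoter is on. The lmo1-/- allele is a frameshifting deletion in exon 2 of *lmo1* made with CRISPR-Cas9, and the TATA allele replaces the GATA site of the first intron by a TALEN-assisted knock-in whose donor oligo also changed a neighbouring TT to CC. The lmo1-/- line descends from 1 founder deletion. The labels do not say whether each library comes from a separate fish, so that the p values measure only the spread between these libraries. The tumors that the study calls GATA/GATA, which carry neither edit of *lmo1*, are not analysed here. Each comparison is TATA/TATA against lmo1-/-, so that the 2 genotypes differ in both edits.

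Matrix proteins build basement membranes and the interstitial matrix. Basement membranes are thin sheets in which laminin trimers, each of an alpha, a beta and a gamma chain, form a network that nidogens and perlecan join to a network of collagen IV. The interstitial matrix is made of fibrils of collagens I, V and their relatives, decorated by collagens that lie on fibrils (the FACIT group) and accompanied by the beaded filaments of collagen VI. In peripheral nerve and in neuroblastoma the fibrils are mostly laid down by fibroblasts and Schwann cells of the stroma, and the basement membranes by Schwann, endothelial and epithelial cells. Neuroblastoma cells are known to bind laminin through integrins.

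Library depth ran from 48144549 to 55782865 reads on genes. The targeted gene *lmo1* held 24.6, 21.0 and 41.9 RPKM (reads scaled by exon length in kilobases and by mapped reads) in the lmo1-/- libraries, against 13.6 and 12.7 RPKM in the TATA/TATA pair, and counts over whole genes cannot show the deletion. The 72 matrix genes together took 10459, 5245 and 6074 reads in lmo1-/- replicates 1 to 3, or 0.0206%, 0.0109% and 0.0109% of the reads on genes. In TATA/TATA replicates 1 and 2 they took 9798 and 9184 reads, or 0.0178% and 0.0174%. The lmo1-/- library numbered 1 was the highest of its genotype for 28 matrix genes, 50.9% of those above 3 reads in a library that had a highest lmo1-/- library, against 34.1% over all genes. Markers of macrophages stood far apart between the genotypes, at a summed 83.7 to 152 RPKM in lmo1-/- and 1964 to 2030 RPKM in TATA/TATA libraries. In sorted bulk samples, fewer cells of a type and less RNA per cell cannot be told apart.

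Few matrix genes reached 1 RPKM, a level often used to call a gene expressed. In lmo1-/- tumors 4 of the 72 had a mean of at least 1 RPKM, the laminin chains *lama5* and *lama1* and the nidogens *nid2a* and *nid1b*, all of them parts of basement membranes. In TATA/TATA tumors 4 had such a mean as well, the fibrillar collagen chains *col5a3a* and *col1a1b*, *lama5* and *sparc*. Only *lama5* was in both sets, so that 7 genes (9.72%) reached the level in either genotype. Over all genes listed, 36.8% reached it in lmo1-/- and 42.4% in TATA/TATA tumors.

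**Figure D1:**
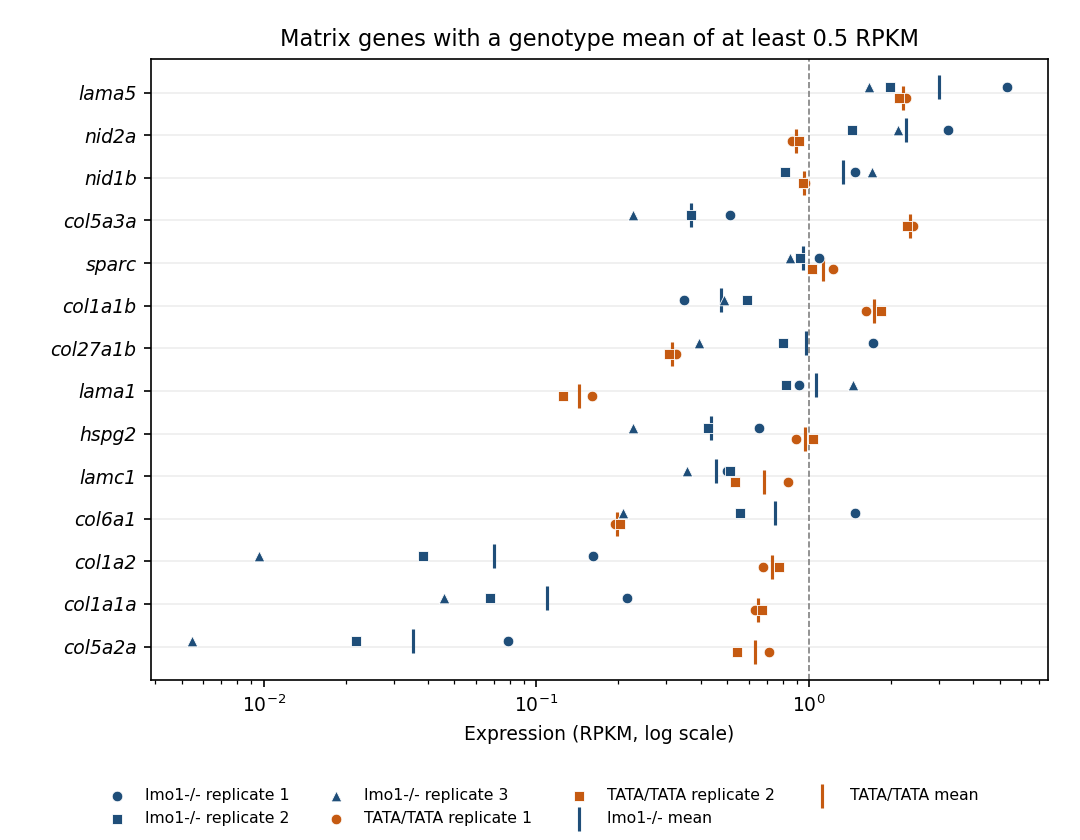
RPKM of the 14 matrix genes with a mean of at least 0.5 RPKM in either genotype, on a logarithmic axis. Each symbol is 1 library (lmo1-/- in blue, TATA/TATA in orange), vertical bars are genotype means, and the dashed line is 1 RPKM. *lama5* lies to the right of the line in all 5 libraries, *col5a3a* and *col1a1b* only in the TATA/TATA libraries.

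The 1 RPKM level was close to several genes on both sides. Just inside it were *lama1* in lmo1-/- tumors at 1.06 ± 0.334 RPKM (SD, n = 3) and *sparc* in TATA/TATA tumors at 1.12 ± 0.141 RPKM (SD, n = 2). Just outside were *col27a1b* and *sparc* in lmo1-/- tumors, at 0.973 and 0.953 RPKM, and *hspg2* and *nid1b* in TATA/TATA tumors, at 0.968 and 0.957 RPKM. At 0.5 RPKM the counts were 7 and 11 genes in lmo1-/- and TATA/TATA tumors, and at 2 RPKM they were 2 and 2. With RPKM rescaled by the TMM factors used in the test they were 6 and 3. With every library of a genotype required at 1 RPKM, 2 genes passed in lmo1-/- (*lama5* and *nid2a*) and 4 in TATA/TATA tumors.

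**Figure D2:**
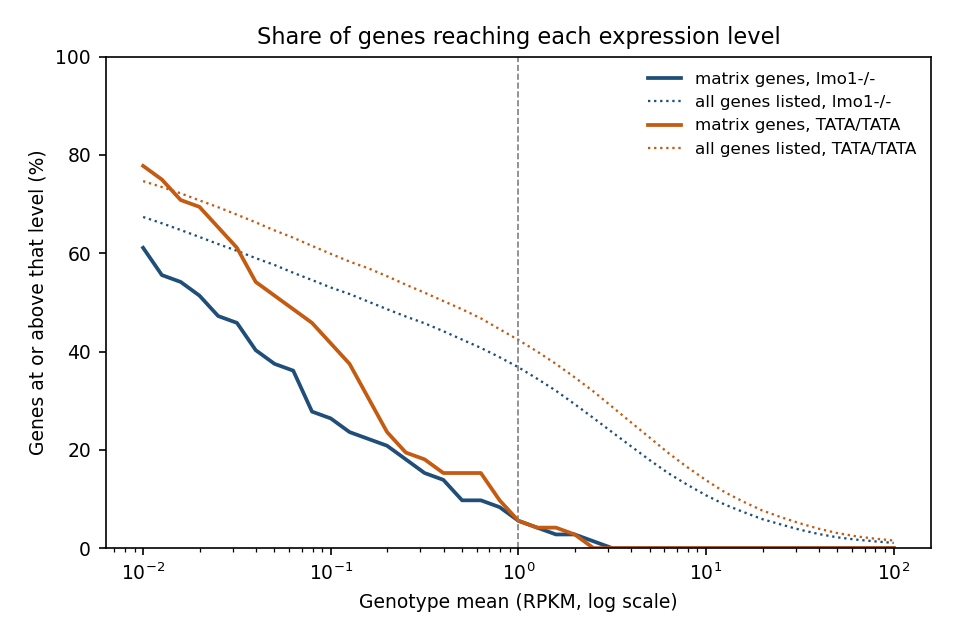
Percentage of genes whose genotype mean is at or above the level on the logarithmic horizontal axis (RPKM), for the 72 matrix genes (solid) and all 30647 genes listed (dotted), lmo1-/- in blue and TATA/TATA in orange. At the dashed line of 1 RPKM both solid curves stand at 5.56%, under the dotted curves at 36.8% and 42.4%.

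Most matrix genes were nonetheless detected. Of the 72 genes, 68 had a read in some library and 60 had more than 3 reads in some library, the floor that a count of 0 allows. The 4 without a read were *lama3*, *col8a1a*, *col10a1b* and *col28a1a*. No library passed the floor for 12 genes. A further 10 passed it in TATA/TATA libraries alone and 2 (*col19a1* and *col8a2*) in lmo1-/- libraries alone, which leaves 48 genes above it in both genotypes. The same split over all genes is not given here, so that it is not read as a result about the matrix genes. A mean of 0.01 RPKM was reached by 67.4% of all genes in lmo1-/- and 74.7% in TATA/TATA tumors. Of the matrix genes 61.1% and 77.8% reached it. Among the 12 genes for which no library passed the floor were both genes of the cartilage collagen X and the collagen IX genes *col9a1a* and *col9a1b*. So was the muscle laminin chain *lama2*, known for its role in muscle basement membranes in mammals. The *lama2* gene model of the files holds 2518 bp of exon, compared with 11462 bp for *lama5*, and *col26a1* holds 946 bp.

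Expression in the 2 genotypes was then compared with edgeR's quasi-likelihood test on the counts, normalized by TMM, in genes that reached 1 RPKM in 2 or more libraries. Only 6 of the 72 matrix genes (8.33%) met that level, compared with 44.0% of all genes. The collagen chains *col5a3a* and *col1a1b* were higher in TATA/TATA tumors, and the nidogens *nid2a* and *nid1b* were lower. Of the genes tested, 19.9% were higher and 16.7% lower in TATA/TATA tumors, beside 2 of 6 matrix genes (33.3%) in each direction. The median log2 fold change (TATA/TATA over lmo1-/-) of the 6 was -0.57, beside -0.05 over all 13484 genes tested. Each called matrix gene reached 1 RPKM only in libraries of the genotype where it was higher. The filter therefore shapes these shares and the median, and no conclusion about the matrix genes as a set is drawn from them. When the authors' library totals replaced TMM the median of all genes tested moved to 0.41 and that of the 6 to -0.10, and the matrix genes then gave 2 higher and 1 lower.

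The other matrix genes with a read were too low for that test and take their values from the same fit over all 25459 genes with a count, in which 11 of the 68 matrix genes (16.2%) were higher and 5 (7.35%) lower in TATA/TATA tumors. Over all genes in that fit 15.0% were higher and 10.4% lower, so that the matrix genes were called about as often as genes at large. Of 50 collagen genes 10 were higher and 2 lower, and of 16 laminin and nidogen genes 1 was higher and 3 lower. With the authors' library totals the matrix genes split into 16 higher and 3 lower, and with median-ratio factors into 13 and 4. The shares of all genes called at these scalings are not given here. The median log2 fold change of all counted genes was 0.06 with TMM, 0.55 with the authors' totals and 0.10 with median-ratio factors. Relative to it the median of the matrix genes stayed at 0.87, 0.88 and 0.87, so that the added calls are not read as a result about the matrix genes. The median over the 48 genes above the floor in both genotypes was 0.66, beside -0.05 over all genes above it. With the genes at the floor set to their bounds, the median over 60 genes was 0.59, beside -0.03. In RPKM, the TATA/TATA libraries lay above all lmo1-/- libraries for 32 of these 60 genes (53.3%) and below them for 8 (13.3%), against 51.0% and 12.3% of all genes above the floor. On the TMM scale of the test these were 30 (50.0%) and 10 (16.7%) of the matrix genes, against 35.5% and 25.4% of all genes.

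**Figure D3:**
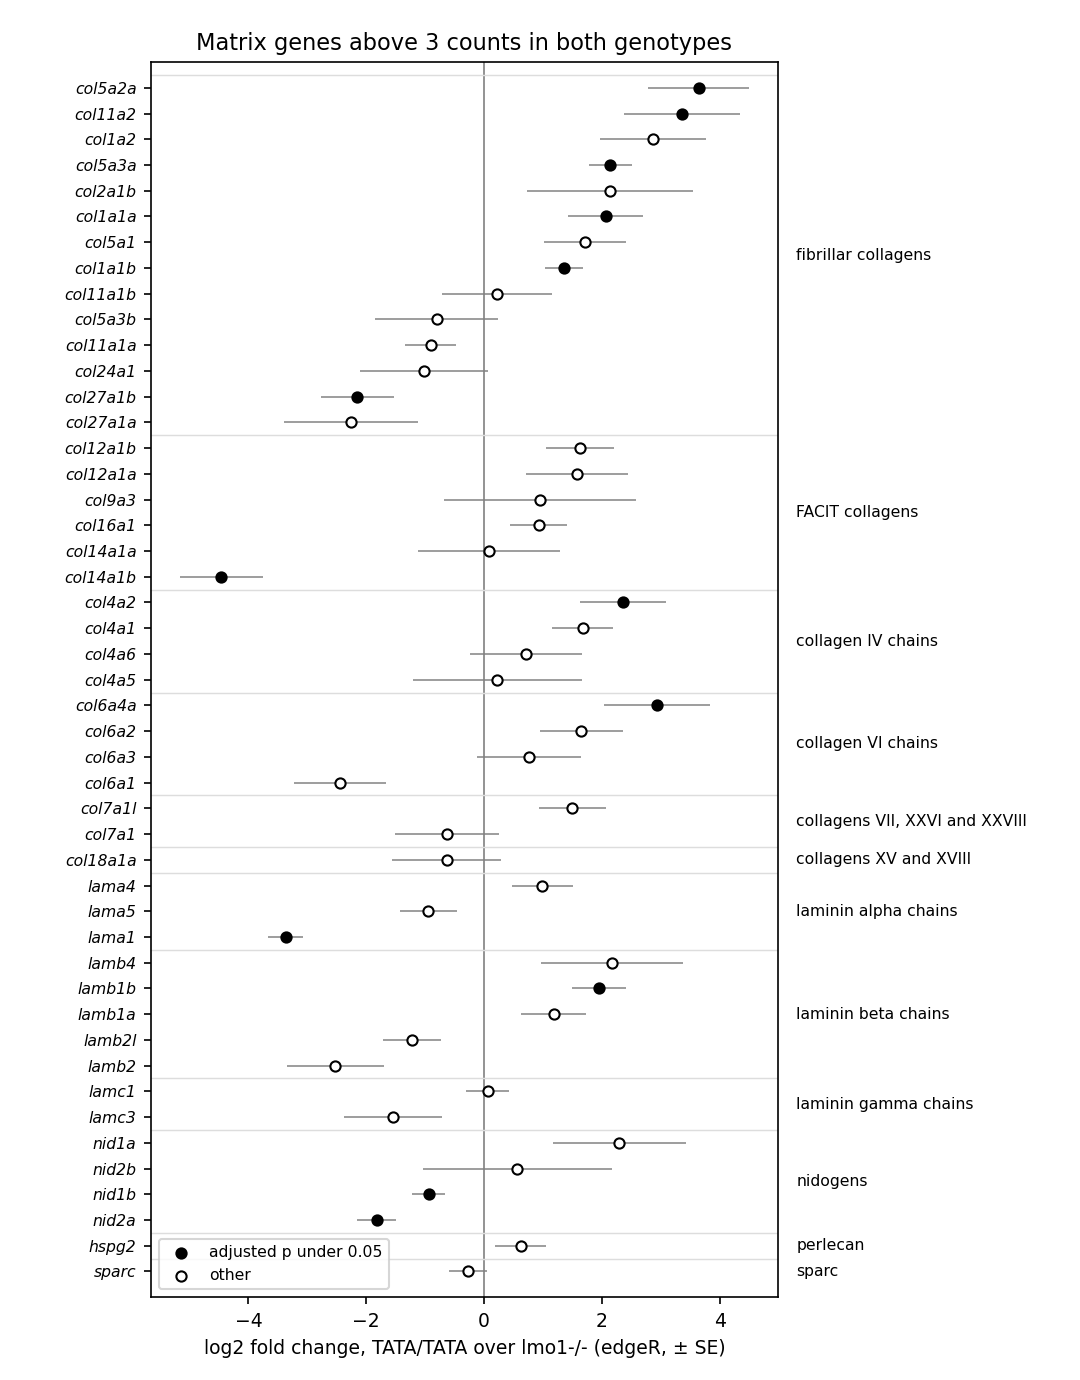
Log2 fold change of TATA/TATA over lmo1-/-, from the edgeR fit of every counted gene. Drawn are the matrix genes reported here that had above 3 reads in both genotypes, grouped by kind of chain. Bars are the SE derived from the F statistic of the test. Filled points have an adjusted p under 0.05; *lama1* and *col14a1b* lie farthest to the left and *col5a2a* farthest to the right.

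Among laminin alpha chains, the balance between *lama5* and *lama1* differed between the genotypes. *lama5* encodes the alpha chain that is most widespread in adult basement membranes of mammals, and it was the matrix gene with the most reads in every library, between 20.0% and 38.6% of all matrix reads. It stood at 5.32, 1.99 and 1.66 RPKM in the lmo1-/- libraries, against 2.27 and 2.15 RPKM in the TATA/TATA pair. The TATA/TATA values lie between those of the lmo1-/- libraries, of which replicate 1 was by far the highest. The log2 fold change was -0.91 (edgeR adjusted p = 0.238; SE, 0.54). The gene passed the threshold in the fit of all genes without lmo1-/- replicate 3 (adjusted p = 0.0398).

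*lama1* encodes the alpha chain of the laminin that is laid down first in the mouse embryo. It stood at 0.922, 0.824 and 1.45 RPKM in the lmo1-/- libraries, against 0.161 and 0.125 RPKM in the TATA/TATA libraries. The ranges were far apart, with the lowest lmo1-/- library above both TATA/TATA libraries. *lama1* fell by 3.37 on the log2 scale (edgeR adjusted p = 0.00028 among all counted genes; SE, 0.30), and passed the threshold with each library left out in turn and with every other setting tried. The ratio of *lama5* to *lama1* within a library, which no scaling between libraries can move, was 5.77, 2.41 and 1.15 in lmo1-/- and 14.1 and 17.1 in TATA/TATA libraries. *lama4*, an alpha chain of vessel walls in mammals, held 0.0529 to 0.186 RPKM in lmo1-/- and 0.349 and 0.323 RPKM in TATA/TATA libraries, with a log2 fold change of 0.99 (edgeR adjusted p = 0.209; SE, 0.52).

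The beta and gamma chains, without which an alpha chain is not assembled into a trimer, were all under 1 RPKM. *lamc1*, the common gamma chain, stood at 0.4998, 0.513 and 0.356 RPKM in the lmo1-/- libraries, against 0.834 and 0.536 RPKM in the TATA/TATA pair. Although the TATA/TATA libraries were higher in RPKM, its log2 fold change was 0.06 (edgeR adjusted p = 0.918; SE, 0.37), and it changed sign without TATA/TATA replicate 1 (-0.28) and without lmo1-/- replicate 3 (-0.12). *lamb1b*, one of the duplicate genes of the common beta chain, held 0.0486, 0.0474 and 0.0954 RPKM in lmo1-/- and 0.336 and 0.348 RPKM in TATA/TATA libraries. It was the 1 laminin chain higher in TATA/TATA tumors, with a log2 fold change of 1.95 (edgeR adjusted p = 0.0187; SE, 0.46), and the call was lost without TATA/TATA replicate 1 or 2 (adjusted p = 0.186 and 0.212). Its duplicate *lamb1a* stood at a mean of 0.0453 ± 0.0213 RPKM in lmo1-/- (SD, n = 3) and of 0.141 ± 0.0174 RPKM in TATA/TATA tumors (SD, n = 2), with an adjusted p of 0.161. *lamb2*, the beta chain of synapses and kidney in mammals, went the other way, at a mean of 0.0658 ± 0.0337 RPKM in lmo1-/- (SD, n = 3) and of 0.0156 ± 0.00808 RPKM in TATA/TATA tumors (SD, n = 2), and just missed the threshold (log2 fold change, -2.52; edgeR adjusted p = 0.059; SE, 0.82). It was past the threshold with DESeq2 (adjusted p = 0.0238), with a minimum of 10 counts in 2 libraries (adjusted p = 0.044, chosen after seeing the data) and without lmo1-/- replicate 1 (adjusted p = 0.0288).

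In every library *lama5* outweighed *lamc1*, and the summed alpha chains outweighed the summed beta chains. This did not hold for each alpha chain. The ratio of *lama1* to *lamc1* was 0.193 and 0.234 in the TATA/TATA libraries, and that of *lama4* to *lamc1* was 0.103 to 0.603 over all libraries. The RPKM of *lama5* was 10.6, 3.87 and 4.67 times that of *lamc1* in the lmo1-/- libraries, against 2.72 and 4.003 times in the TATA/TATA pair. Against the summed RPKM of the 5 beta chains, that of the 5 alpha chains stood at 19.6, 7.16 and 7.16 times in lmo1-/- and at 4.42 and 3.67 times in TATA/TATA libraries. The lmo1-/- ratios to the beta chains were all above the TATA/TATA ratios, whereas those of *lama5* to *lamc1* overlapped. The ratios were not tested.

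Nidogens, which bridge laminin and collagen IV, were lower in TATA/TATA tumors in their main members. *nid2a* held 3.24, 1.43 and 2.12 RPKM in the lmo1-/- libraries, against 0.867 and 0.922 RPKM in the TATA/TATA pair. All lmo1-/- libraries were above both TATA/TATA libraries, and the log2 fold change was -1.79 (edgeR adjusted p = 0.0103; SE, 0.35). The call was lost without TATA/TATA replicate 1 (adjusted p = 0.0781) or 2 (adjusted p = 0.0679). *nid1b* held 1.48, 0.815 and 1.70 RPKM in the lmo1-/- libraries, against 0.966 and 0.948 RPKM in the TATA/TATA pair. Its RPKM ranges overlap, because lmo1-/- replicate 2 was below both TATA/TATA libraries, and the log2 fold change of -0.90 (edgeR adjusted p = 0.046; SE, 0.27) rests on the scaling. With the authors' library totals it was -0.48 (adjusted p = 0.323), which is -0.88 relative to the median of all genes at that scaling. It also missed the threshold without TATA/TATA replicate 1 or 2 (adjusted p = 0.238 and 0.240) and without lmo1-/- replicate 1 or 3 (adjusted p = 0.0767 and 0.0957), as well as with limma (adjusted p = 0.412 and 0.343).

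The duplicates *nid1a* and *nid2b* were scarce. *nid1a* stood at 0.0234 ± 0.0292 RPKM in lmo1-/- (SD, n = 3) and 0.161 ± 0.0661 RPKM in TATA/TATA tumors (SD, n = 2), with a log2 fold change of 2.30 (edgeR adjusted p = 0.181; SE, 1.12), opposite in sign to that of *nid1b*. *nid2b* had at most 11 reads in a library. The ratio of *nid2a* to *nid1b* was 2.19, 1.76 and 1.25 in lmo1-/- and 0.897 and 0.972 in TATA/TATA libraries, so that *nid2a* was the more abundant in the former and *nid1b* in the latter.

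Perlecan and *sparc* held close to 1 RPKM in TATA/TATA tumors. *hspg2*, which encodes perlecan, the large heparan sulfate proteoglycan of basement membranes, stood at 0.655, 0.428 and 0.226 RPKM in the lmo1-/- libraries, against 0.898 and 1.04 RPKM in the TATA/TATA pair. Both TATA/TATA libraries were above all lmo1-/- libraries, but the log2 fold change of 0.62 did not pass the test (edgeR adjusted p = 0.337; SE, 0.43). *sparc*, a collagen-binding glycoprotein of the matrix, stood at 1.09, 0.926 and 0.849 RPKM in lmo1-/- and 1.22 and 1.02 RPKM in TATA/TATA libraries. The ranges overlapped, and the log2 fold change was -0.23 (edgeR adjusted p = 0.568; SE, 0.29), which became 0.24 with the authors' library totals, where the median of all genes tested was 0.41.

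Collagen IV, the network collagen of basement membranes, was scarce next to the more abundant laminin and nidogen genes *lama5*, *lamc1*, *nid2a* and *nid1b*. *col4a1* and *col4a2*, which encode the chains of the common collagen IV trimer and are neighbours in the GRCz12tu annotation, held 0.0263 to 0.0613 RPKM and 0.00717 to 0.0218 RPKM in the lmo1-/- libraries. In the TATA/TATA libraries *col4a1* held 0.198 and 0.179 RPKM and *col4a2* held 0.139 and 0.110 RPKM, above every lmo1-/- library for both genes. The log2 fold change was 2.36 for *col4a2* (edgeR adjusted p = 0.0484; SE, 0.72) and 1.67 for *col4a1* (edgeR adjusted p = 0.051; SE, 0.52), so that the threshold fell between these neighbours. With all libraries kept, *col4a2* held its call in 6 of 7 other settings. *col4a2* lost its call without TATA/TATA replicate 1 or 2 (adjusted p = 0.344 and 0.257) and without lmo1-/- replicate 1 or 2 (adjusted p = 0.0521 and 0.0591). *col4a1* passed the threshold with the authors' library totals (adjusted p = 0.0164), with median-ratio factors (adjusted p = 0.0463), with DESeq2 (adjusted p = 0.0112), with limma (adjusted p = 0.0094 and 0.0035), with a minimum of 10 counts in 2 libraries (adjusted p = 0.0451) and without lmo1-/- replicate 1 or 3 (adjusted p = 0.0194 and 0.0436). The ratio of *col4a1* to *col4a2* was 2.90, 1.68 and 3.67 in lmo1-/- and 1.42 and 1.62 in TATA/TATA libraries. The lmo1-/- ratios rest on 8, 8 and 3 reads of *col4a2*. Chains of the other collagen IV trimers had at most 20 reads in a library, and *col4a3* had reads in 1 library only.

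Collagens XV and XVIII, which carry glycosaminoglycan chains and sit at the outer face of basement membranes, gave no call. *col18a1a*, the source of endostatin, held 0.570, 0.181 and 0.0377 RPKM in the lmo1-/- libraries, against 0.294 and 0.195 RPKM in the TATA/TATA pair, so that the lmo1-/- libraries lay on both sides of the TATA/TATA libraries. Its log2 fold change was -0.63 (edgeR adjusted p = 0.636; SE, 0.93).

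Of the 16 fibrillar collagens, the largest class, 6 were higher in TATA/TATA tumors (37.5%, beside 15.0% of all counted genes) and 1 lower (6.25%, beside 10.4%). Their summed RPKM was 3.82, 2.36 and 1.82 in the lmo1-/- libraries and 7.005 and 7.25 in the TATA/TATA libraries. *col5a3a*, which encodes an alpha 3 chain of collagen V, the collagen that sets fibril width together with collagen I, was the most abundant fibrillar collagen gene of TATA/TATA tumors. It stood at 0.512, 0.368 and 0.227 RPKM in lmo1-/- and at 2.41 and 2.28 RPKM in TATA/TATA libraries, with no overlap. The log2 fold change was 2.18 (edgeR adjusted p = 0.0077; SE, 0.39), and the gene passed the threshold with each library left out and with every other setting tried.

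Collagen I, the main fibril former of skin, bone and scar, is encoded in zebrafish by *col1a1a*, *col1a1b* and *col1a2*. *col1a1b* held 0.348, 0.591 and 0.487 RPKM in lmo1-/- and 1.62 and 1.84 RPKM in TATA/TATA libraries, a log2 fold change of 1.38 (edgeR adjusted p = 0.0184; SE, 0.32). *col1a1a* held 0.215, 0.0679 and 0.0458 RPKM in lmo1-/- and 0.633 and 0.670 RPKM in TATA/TATA libraries, with a log2 fold change of 2.06 (SE, 0.64) and an adjusted p of 0.04997 from edgeR that is just under the threshold. *col1a2* held 0.162, 0.0383 and 0.00959 RPKM in lmo1-/- and 0.679 and 0.779 RPKM in TATA/TATA libraries, with a log2 fold change of 2.87 (edgeR adjusted p = 0.0517; SE, 0.90) that is just outside it. For each of these genes both TATA/TATA libraries were above every lmo1-/- library. *col1a1b* lost its call without TATA/TATA replicate 1 or 2 (adjusted p = 0.0871 and 0.135). *col1a1a* lost its call in those settings too, as well as without lmo1-/- replicate 2 (edgeR adjusted p = 0.142). It also lost the call with a minimum of 10 counts in 2 libraries in place of a count in any library (edgeR adjusted p = 0.057). *col1a2* was past the threshold without lmo1-/- replicate 1 (adjusted p = 0.0069), without replicate 3 (adjusted p = 0.0161) and with DESeq2, limma and both other edgeR scalings (adjusted p = 0.0028 to 0.0478).

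The chains of collagen I were not in the same proportion in the lmo1-/- libraries. The ratio of *col1a1b* to *col1a2* was 2.15 in lmo1-/- replicate 1 and 2.38 and 2.36 in the TATA/TATA libraries, but 15.5 and 50.8 in lmo1-/- replicates 2 and 3. The last of these rests on 4 reads of *col1a2* against 198 of *col1a1b*. The ratio of *col1a1a* to *col1a2* was 1.33, 1.77 and 4.78 in lmo1-/- and 0.933 and 0.860 in TATA/TATA libraries.

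**Figure D4:**
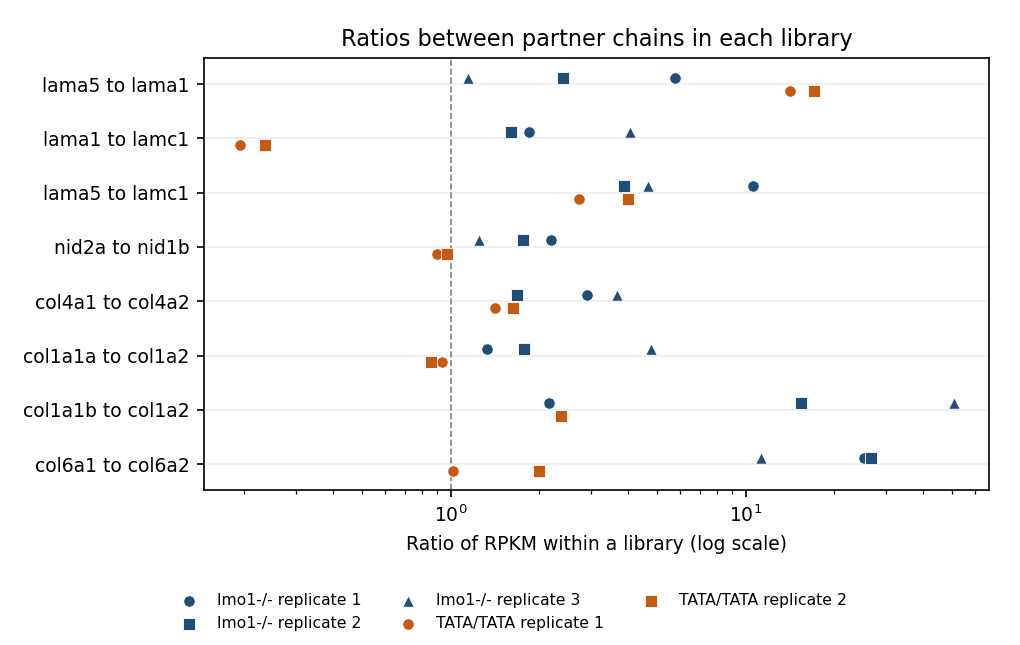
Ratio of RPKM between partner or duplicate chains within each library, on a logarithmic axis, with lmo1-/- in blue, TATA/TATA in orange and 1 symbol per library. The dashed line marks equal RPKM; *lama5* to *lama1* is 1.15 to 5.77 in lmo1-/- and 14.1 to 17.1 in TATA/TATA libraries.

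Further fibrillar collagens were under 1 RPKM in both genotypes. *col5a2a*, the alpha 2 chain of collagen V, held 0.0784, 0.0218 and 0.00546 RPKM in lmo1-/- and 0.716 and 0.546 RPKM in TATA/TATA libraries, and was higher by 3.64 on the log2 scale (edgeR adjusted p = 0.0177; SE, 0.85). *col11a2*, a chain of the cartilage collagen XI, had 0, 4 and 5 reads in lmo1-/- and 56 and 43 reads in TATA/TATA libraries, a log2 fold change of 3.35 (edgeR adjusted p = 0.0415; SE, 0.98). Both calls were lost without TATA/TATA replicate 1 (adjusted p = 0.116 and 0.266), without replicate 2 (adjusted p = 0.0797 and 0.213) and without lmo1-/- replicate 2 (adjusted p = 0.0691 and 0.0669). *col5a2b* had 0, 0 and 2 reads in the lmo1-/- libraries and 22 and 19 in the TATA/TATA libraries, a ratio of 20.1 with a 95% counting interval of 5.22 to 172 (exact Clopper-Pearson limits of the share of reads, on the TMM scale). Its adjusted p of 0.0437 in edgeR rose above the threshold without lmo1-/- replicate 1 or 2 (0.0654 and 0.087) and without TATA/TATA replicate 1 or 2 (0.247 and 0.230).

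*col27a1b* was the fibrillar collagen gene that was lower in TATA/TATA tumors. It belongs to the collagens with short interrupted helices and is known from the notochord of the zebrafish embryo. It held 1.72, 0.801 and 0.395 RPKM in lmo1-/- and 0.324 and 0.306 RPKM in TATA/TATA libraries, with lmo1-/- replicate 3 close to the TATA/TATA values. The log2 fold change was -2.15 (edgeR adjusted p = 0.0397; SE, 0.62), and the call was lost without either TATA/TATA library (adjusted p = 0.194 and 0.209), without lmo1-/- replicate 1 or 2 (adjusted p = 0.0661 and 0.0905), with the authors' library totals (adjusted p = 0.0822) and with limma (adjusted p = 0.196 and 0.245). *col11a1a*, a further chain of collagen XI, stood at a mean of 0.313 ± 0.0859 RPKM in lmo1-/- (SD, n = 3) and of 0.242 ± 0.0301 RPKM in TATA/TATA tumors (SD, n = 2), with an adjusted p of 0.173 that fell to 0.039 without lmo1-/- replicate 3.

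The collagens that lie on fibrils gave 1 gene in each direction among 11 (9.09% each, beside 15.0% higher and 10.4% lower of all counted genes). *col14a1b*, a chain of collagen XIV that binds fibril surfaces, held 0.312, 0.176 and 0.139 RPKM in lmo1-/- and 0.0187 and 0.00779 RPKM in TATA/TATA libraries, on 142, 78 and 70 reads against 10 and 4. It fell by 4.46 on the log2 scale (edgeR adjusted p = 0.0034; SE, 0.70) and lost the call without TATA/TATA replicate 2 (adjusted p = 0.0546). *col9a2*, a chain of the cartilage collagen IX, had 1, 0 and 3 reads in lmo1-/- and 31 and 21 in TATA/TATA libraries, a ratio of 12.7 with a 95% counting interval of 4.69 to 48.5. Its adjusted p of 0.0417 in edgeR moved past the threshold without lmo1-/- replicate 1 or 2 (0.0697 and 0.0617) and without TATA/TATA replicate 1 or 2 (0.295 and 0.206). With all libraries kept, *col9a2* held its call in 6 of 7 other settings. The paralogs *col12a1a* and *col12a1b* lay above the lmo1-/- range in both TATA/TATA libraries, with adjusted p values from edgeR of 0.229 and 0.0798. *col12a1b* was past the threshold with DESeq2 (adjusted p = 0.0386), with the authors' library totals (adjusted p = 0.0279), with limma (adjusted p = 0.0134 and 0.0108) and without lmo1-/- replicate 1 (adjusted p = 0.0313).

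Collagen VI, whose filaments join an alpha 1 chain, an alpha 2 chain and 1 of several others, was uneven. *col6a1* held 1.48, 0.560 and 0.208 RPKM in lmo1-/- and 0.194 and 0.202 RPKM in TATA/TATA libraries. The lmo1-/- values span a wide range whose lowest library was near the TATA/TATA values, and the log2 fold change of -2.45 missed the threshold (edgeR adjusted p = 0.056; SE, 0.78). It was past the threshold without lmo1-/- replicate 3 (adjusted p = 0.0019) and with DESeq2 (adjusted p = 0.0047). *col6a4a* was higher, on 14, 2 and 2 reads in lmo1-/- and 91 and 59 reads in TATA/TATA libraries (log2 fold change, 2.93; edgeR adjusted p = 0.0491; SE, 0.90), and lost the call without TATA/TATA replicate 1 or 2 (adjusted p = 0.303 and 0.187) and without lmo1-/- replicate 2 (adjusted p = 0.117). The log2 fold change was 1.65 for *col6a2* (adjusted p = 0.131) and 0.76 for *col6a3* (adjusted p = 0.547), both at most 0.191 RPKM. The ratio of *col6a1* to *col6a2* was 25.3, 26.7 and 11.3 in lmo1-/- and 1.02 and 1.99 in TATA/TATA libraries, which do not overlap. The lmo1-/- ratios rest on 23, 8 and 8 reads of *col6a2*.

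The remaining collagens had few reads, many of them at the floor. *col8a1b*, a network-forming collagen VIII chain of vessel and cornea in mammals, had no reads in any lmo1-/- library and 14 and 15 in the TATA/TATA libraries, which is at least 3.09-fold higher against a floor of 3 reads per library. Its adjusted p of 0.0357 in edgeR rose above the threshold without TATA/TATA replicate 1 or 2 (0.169 and 0.189) and without lmo1-/- replicate 2 (0.0594). With all libraries kept, *col8a1b* held its call in 6 of 7 other settings. *col17a1b*, a transmembrane collagen of epidermal hemidesmosomes, had no lmo1-/- reads and 5 and 15 TATA/TATA reads, at least 2.16-fold higher, with an adjusted p of 0.0679 that became 0.0472 with the authors' library totals. *col19a1* had no TATA/TATA reads and 1, 1 and 9 lmo1-/- reads, at least 1.65-fold lower, with an adjusted p of 0.127. *col8a2* had 0, 5 and 10 reads in lmo1-/- and 0 and 3 in TATA/TATA libraries, a ratio of 0.196 (95% counting interval, 0.0364 to 0.693), with an adjusted p of 0.405. *col15a1b* had 2 reads over the lmo1-/- libraries and 17 over the TATA/TATA libraries, a ratio of 8.33 (95% counting interval, 1.98 to 74.4). *col7a1l* had 19, 11 and 13 reads in lmo1-/- and 75 and 55 in TATA/TATA libraries, with an adjusted p of 0.0928.

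The collagen IV binding protein *col4a3bpb* was more abundant than every matrix gene, at 8.16, 5.72 and 8.15 RPKM in lmo1-/- and 12.2 and 12.4 RPKM in TATA/TATA libraries. This ceramide carrier between endoplasmic reticulum and Golgi had a log2 fold change of 0.29 (edgeR adjusted p = 0.233; SE, 0.17). Its paralog *col4a3bpa* held 0.564, 0.704 and 1.20 RPKM in lmo1-/- and 0.247 and 0.254 RPKM in TATA/TATA libraries, lower by a log2 fold change of -2.18 (edgeR adjusted p = 0.0068 among all counted genes; SE, 0.41), which was lost without TATA/TATA replicate 1 or 2 (adjusted p = 0.0991 and 0.0944) and with limma at a pseudocount of 1 (adjusted p = 0.0681).

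Of 27 listed genes that modify, fold and export collagen, 12 had a mean of at least 1 RPKM in lmo1-/- and 14 in TATA/TATA tumors. Over all genes listed, 36.8% and 42.4% reached that level. Of 15 tested members of that list 3 were higher and 3 lower in TATA/TATA tumors (20.0% in each direction), near the 19.9% and 16.7% of all genes tested, with a median log2 fold change of -0.14. Its most abundant members, the prolyl isomerase *ppib* and the disulfide isomerase *p4hb*, which is the beta subunit of prolyl 4-hydroxylase, held 268 and 39.0 RPKM in lmo1-/- and 329 and 47.3 RPKM in TATA/TATA tumors, with adjusted p values from edgeR of 0.489 and 0.438. Those with the largest changes were *p3h2*, a prolyl 3-hydroxylase that acts on collagen IV in mammals (0.0246, 0.0198 and 0.0248 RPKM in lmo1-/- against 2.19 and 1.95 RPKM), and *plod1a*, a lysyl hydroxylase (0.0697, 0.0308 and 0.0901 RPKM against 1.02 and 1.08 RPKM). Their log2 fold changes were 6.02 and 3.60, with adjusted p values from edgeR of 0.00022 and 0.0019. Of the enzymes that process and crosslink the secreted chains only 2 of 22 listed were tested. *bmp1a*, which cleaves the C-terminal propeptide of procollagen, was lower (log2 fold change, -0.89; edgeR adjusted p = 0.0162; SE, 0.20). None of the 2 was higher, beside 19.9% higher and 16.7% lower of all genes tested. In the fit of all counted genes 4 of 20 in this list were higher and 3 lower, beside 15.0% and 10.4% of genes in that fit.

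Receptors for collagen and laminin outside the integrins gave 4 higher and 1 lower of 8 tested (50.0% and 12.5%, beside 19.9% and 16.7% of all genes tested). In the fit of all counted genes 4 of 11 were higher and 2 lower, beside 15.0% and 10.4% of genes in that fit. The most abundant of them, *sdc4*, a heparan sulfate proteoglycan of the cell surface, was higher, at 4.25, 5.26 and 6.82 RPKM in lmo1-/- and 25.6 and 40.7 RPKM in TATA/TATA libraries (log2 fold change, 2.16; edgeR adjusted p = 0.0022; SE, 0.27). The collagen receptor tyrosine kinases *ddr2b* and *ddr1* were higher, from 0.0731, 0.00419 and 0.0662 RPKM to 4.65 and 3.72 RPKM and from 0.656, 0.471 and 0.505 RPKM to 4.21 and 3.57 RPKM, with adjusted p values from edgeR of 0.0017 and 0.0011. Both reached 1 RPKM only in TATA/TATA libraries, so that the filter shapes the shares of those tested. The related *ddr2l* held 1.32, 1.20 and 1.42 RPKM in lmo1-/- and 1.17 and 1.13 RPKM in TATA/TATA libraries. It was not called (log2 fold change, -0.65; edgeR adjusted p = 0.0614). *bcam*, whose human product is a receptor for laminins with the alpha 5 chain, was lower, at 11.4, 11.8 and 22.6 RPKM in lmo1-/- and 4.73 and 5.51 RPKM in TATA/TATA libraries (log2 fold change, -2.003; edgeR adjusted p = 0.0039; SE, 0.29). *mrc2*, under 1 RPKM in every library, was the other lower gene in the fit of all counted genes (log2 fold change, -2.74; edgeR adjusted p = 0.0252; SE, 0.70). Other matrix glycoproteins and proteoglycans gave 2 higher and 3 lower of 13 tested (15.4% and 23.1%), not far from the shares of all genes tested. The 2 higher were *ecm1b* and the fibronectin gene *fn1a*, and the 3 lower were *postna*, *efemp2b* and *spock3*. The most abundant of this list, *spock3*, a secreted proteoglycan, held 13.7, 21.9 and 19.8 RPKM in lmo1-/- and 8.41 and 8.96 RPKM in TATA/TATA libraries (log2 fold change, -1.56; edgeR adjusted p = 0.0077; SE, 0.28). *postna* held 1.98, 3.30 and 2.61 RPKM in lmo1-/- and 0.348 and 0.193 RPKM in TATA/TATA libraries (log2 fold change, -3.77; edgeR adjusted p = 0.0018; SE, 0.44). *fn1a* held 0.103, 0.110 and 0.169 RPKM in lmo1-/- and 2.19 and 2.77 RPKM in TATA/TATA libraries, a log2 fold change of 3.84 (edgeR adjusted p = 0.00036; SE, 0.25).

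Of 25 matrix-degrading enzymes and inhibitors tested 15 were higher (60.0%, beside 19.9% of all genes tested) and 4 lower (16.0%, beside 16.7%), at a median log2 fold change of 1.98. Some of the higher genes, such as *mmp13b* and *ctsl.1*, reached 1 RPKM only in TATA/TATA libraries. The filter therefore shapes these shares and the median. In the fit of all counted genes 16 of 37 were higher and 5 lower, beside 15.0% and 10.4% of genes in that fit. Fewer of the genes tested were called higher without TATA/TATA replicate 1 or 2, in fits that leave 1 library of that genotype. The shares of all genes called in those fits are not given here. The summed RPKM of the 37 listed was 77.0, 79.7 and 150 in the lmo1-/- libraries and 321 and 338 in the TATA/TATA libraries. The 72 matrix genes summed to 11.4 to 20.7 and 17.3 to 17.8 RPKM. Of the TATA/TATA sums *ctsba* alone held 93.5 and 95.8 RPKM, and *ctss2.2* held 51.4 and 56.8 RPKM. The lysosomal cysteine proteases *ctsba* and *ctss2.2* and the collagenase gene *mmp13b* were higher and the protease *ctsla* lower. The largest change was that of the related protease *ctsl.1*, with 0, 0 and 2 reads in lmo1-/- and 222 and 260 reads in TATA/TATA libraries (edgeR adjusted p = 0.0011). *ctss2.2* held 2.41 ± 0.857 RPKM in lmo1-/- (SD, n = 3) and 54.1 ± 3.84 RPKM in TATA/TATA tumors (SD, n = 2), a log2 fold change of 4.06 (edgeR adjusted p = 0.00027; SE, 0.23).

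Markers of other cell types are given beside these results. Of 10 macrophage markers 9 were higher in TATA/TATA tumors and none was lower, beside 19.9% and 16.7% of all genes tested. The 7 fibroblast markers listed summed to 1.02, 1.31 and 2.95 RPKM in lmo1-/- and 3.59 and 3.63 RPKM in TATA/TATA libraries. None of them passed the test, and 1, *thy1*, was high enough for the test of genes at 1 RPKM (log2 fold change, 0.06; adjusted p = 0.970 from edgeR). In TATA/TATA tumors the other fibroblast markers had means of 0.827 RPKM for *dcn*, 0.495 RPKM for *twist1a*, 0.349 RPKM for *prrx1a*, 0.0444 RPKM for *lum*, 0.0337 RPKM for *pdgfra* and 0.0310 RPKM for *tcf21*. All 7 had a higher mean RPKM in TATA/TATA than in lmo1-/- tumors, including *thy1*. RPKM is scaled by the authors' library totals, with which the median log2 fold change of all counted genes was itself 0.55. The share of all genes with a higher mean was not counted. Mural cell markers summed to 2.69, 1.40 and 0.528 RPKM in lmo1-/- and to 12.8 and 14.5 RPKM in TATA/TATA libraries. Of the 4, 2 were higher over all counted genes, beside 15.0% of genes in that fit.

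The 7 endothelial markers summed to 0.953 to 1.30 RPKM in lmo1-/- and to 3.85 and 4.29 RPKM in TATA/TATA libraries. Of the 7, 1 was higher over all counted genes, beside 15.0% of genes in that fit. This gene, *tie1*, was the only 1 high enough for the test of genes at 1 RPKM. It rose from 0.119, 0.0900 and 0.326 RPKM to 2.67 and 2.97 RPKM, a log2 fold change of 3.58 ± 0.48 (SE, edgeR adjusted p = 0.0028). *tek* had a mean of 1.003 RPKM in TATA/TATA tumors (log2 fold change, -0.03; edgeR adjusted p = 0.971), and *kdrl* and *cdh5* held at most 0.221 RPKM in any library. Of 8 Schwann cell markers 2 were higher and 1 lower over all counted genes, beside 15.0% and 10.4% of genes in that fit. *egr2b* rose from 0.00694, 0.0143 and 0 RPKM to 2.29 and 3.99 RPKM. *erbb3b* rose from 0.00982, 0.00337 and 0.00592 RPKM to 1.43 and 1.15 RPKM. Both had at most 3 reads in each lmo1-/- library. *mpz* was lower, at 0.369, 0.439 and 0.608 RPKM in lmo1-/- and 0.319 and 0.250 RPKM in TATA/TATA libraries. *sox10* held at most 0.0562 RPKM and was not called. Over all counted genes 2 of 5 epidermal markers were higher, beside 15.0% of genes in that fit. They were *krt5* (edgeR adjusted p = 0.0122) and *cdh1* (edgeR adjusted p = 0.0182), with TATA/TATA means of 0.458 and 0.694 RPKM. *krt4* and *tp63* were not called, with log2 fold changes of 1.60 and 0.80 (edgeR adjusted p = 0.0844 and 0.567). *epcam* pointed the other way without a call (log2 fold change of -3.55, edgeR adjusted p = 0.136). It had 16, 1 and 23 lmo1-/- reads against 0 and 3 TATA/TATA reads. Of 7 osteoblast and cartilage markers listed none was higher and 1 was lower, beside 15.0% and 10.4% of all counted genes. The lower gene, *runx2b*, held 0.481, 0.365 and 0.928 RPKM in lmo1-/- and 0.0345 and 0.0206 RPKM in TATA/TATA libraries (edgeR adjusted p = 0.0015). Sympathoadrenal markers gave 3 lower of 6 (50.0%, beside 16.7% of all genes tested) and none higher (beside 19.9%). Among the lower genes *th* stood at 546 to 884 RPKM in lmo1-/- and 454 and 465 RPKM in TATA/TATA libraries. *gata3*, *phox2bb* and *chga* were not called, with log2 fold changes of 0.34, -0.06 and -0.22 (edgeR adjusted p = 0.684, 0.808 and 0.733). The part of these cell types in the matrix genes was not tested.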

How the data were processed

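Total RNA of sorted EGFP+ tumor cells (5 libraries) was sequenced strand-specifically as paired-end reads. The authors aligned the reads to GRCz10 (danRer10) with HISAT2 2.1.0 and counted them per gene name in Ensembl genes with HTSeq, by strand, and the counts were deposited without normalization. The deposited RPKM values were calculated by the authors per kilobase of nonredundant exon and scaled to the mapped reads of the library.

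The counts were compared with edgeR 4.0.16 (quasi-likelihood F-test, TMM, R 4.3.3) over the 13484 genes that reached 1 RPKM in 2 or more libraries, and over all 25459 genes with a count for genes below that level. P values were adjusted by Benjamini-Hochberg, with a threshold of 0.05. Fold changes are TATA/TATA over lmo1-/-. The SE of an edgeR fold change was derived as its absolute log2 value divided by the square root of the F statistic. It is approximate, above all for genes with few reads. The script was tested on simulated data. Alternatives were median-ratio factors, the authors' library totals, DESeq2 1.42.0, limma 3.58.1 on log2(RPKM + 0.1) and log2(RPKM + 1), other filters, the study's threshold (p under 0.05 and an absolute log2 fold change of 0.45), a block for the replicate number, and leaving out each library. A minimum of 10 counts in 2 libraries was added after seeing the data. Without 1 TATA/TATA library, the other is assumed to vary like the lmo1-/- libraries. Depth was 48144549 to 55782865 counts per library, and intervals and floors (3 counts per library) cover counting error only.

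The members and lists were chosen with earlier results of these data known. Any member may be named, with full statistics for the 12 highest in RPKM and those past the threshold with the largest changes. From the other lists, the genes named are some of the 3 most abundant and the 2 called genes with the largest change of each list. Members outside these, other genes of the lists such as *ddr2l* and *postna*, and markers, were named after their values were seen. 1 member is counted in the totals but not reported here.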

Additional observations from a re-analysis of the deposited data

How the results depend on the processing

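In the test of genes with at least 1 RPKM in 2 libraries, the matrix genes that were lower numbered 1 in place of 2 with the authors' library totals and with limma at either pseudocount, and 0 to 2 with each library left out, while those that were higher numbered 1 to 2 with each library left out. The median of the 6 genes was -0.10 with the authors' library totals, -0.0070 and -0.0403 with limma at pseudocounts of 0.1 and 1, and -0.63 to -0.17 with each library left out. Over all genes with a count, 11 higher genes became 20 and 22 with limma, 18 at the study's threshold and 1 to 17 with each library left out (1 without either TATA/TATA library, 3 without lmo1-/- replicate 2, 17 without lmo1-/- replicate 1). The 5 lower genes became 3 with the authors' library totals, 2 with limma at either pseudocount, 9 at the study's threshold and 1 to 7 with each library left out. The shares of all genes called in these settings are not given here. The median was 1.43, 0.19 and 0.0183 with the authors' library totals and with limma, and 0.80 to 1.38 with each library left out. The genes at 1 RPKM in lmo1-/- were 7 at 0.5 RPKM, 2 at 2 RPKM and 2 with every library at 1 RPKM, and those in TATA/TATA tumors 11 and 2 at the first 2 of these levels. The fold change of *sparc* changed sign with the authors' library totals (0.24) and with limma (0.22 and 0.12), and that of *lamc1* ranged from -0.28 to 0.34 with each library left out. The limma settings use RPKM and thus the authors' library totals, so that they are not a separate scaling. Relative to the median of all genes tested, *sparc* stood at -0.19 with TMM and -0.17 with the authors' library totals. The cause of these changes was not tested. A mean of at least 5 RPKM left no matrix gene and gave no value.

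The replicate numbers share only a number, with deviations that correlated at 0.01 and -0.02 over the 2 pairs. With the replicate number as a block the matrix genes gave 2 higher and 3 lower in the first test and 9 higher and 8 lower over all genes with a count, and *lamc1* changed sign (-0.18). The shares of all genes called with this block are not given here.

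Depth limits the lowest genes: no library passed 3 reads for 12 of the 72 matrix genes, and with 2 TATA/TATA libraries most calls were lost when either was left out. Bounds and counting intervals cover counting error alone. Duplicate genes such as *col1a1a* and *col1a1b* share sequence, and how reads common to both were counted was not tested.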

Other observations

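Several chain genes are next to each other in the GRCz12tu annotation of RefSeq: *col4a1* and *col4a2*, *col4a3* and *col4a4*, *col4a5* and *col4a6*, *lamb1a* and *lamb4*, *lamb2* and *lamb2l*, and *col9a2* and *col16a1*. The log2 fold changes of *col4a1* and *col4a2* had the same sign (1.67 and 2.36; adjusted p = 0.051 and 0.0484 from edgeR), as had those of *lamb2* and *lamb2l* (-2.52 and -1.23; adjusted p = 0.059 and 0.109).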
